A study of Mus musculus with 8 samples.

Results

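Peg3, Zim1, Usp29 and Zfp264 form an imprinted domain on proximal mouse chromosome 7, and their RNA was examined in skeletal muscle of newborn mice. The genes were picked by name as this domain, with earlier results of the same libraries known, in which Zim1 was among the called genes. They were thus chosen on the same contrast, and their differences between genotypes are given as a description. Calls from the tests over all genes are stated for them, and nothing is read from these calls. Of the 4 genes named, 3 had a row of counts under their symbol, of 23336 gene rows in all. Zfp264 was not analysed here. RNA was measured in 8 libraries, 4 from ΔDMR1-U2 mice and 4 from wild-type mice, all of the C57BL/6 strain, female by label and at postnatal day 2. The ΔDMR1-U2 allele, a deletion, lies at the Igf2 locus, far from the Peg3 domain on the same chromosome. Its coordinates and the parent that passed it on were not used here. Libraries from ΔDMR1-U2 mice are called deletion libraries below. The libraries of each genotype are named 1A, 1B, 2 and 3, and the labels do not say what 1A and 1B share.

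In the mouse, Peg3 and Usp29 are transcribed from the paternal allele in opposite directions from a shared promoter region, whose maternal copy is methylated in the oocyte. Zim1, the next gene, is transcribed mainly from the maternal allele. Peg3, also named Pw1, encodes a Krüppel-type zinc finger protein and is known in muscle for its expression in satellite cells and in interstitial progenitor cells. Zim1 encodes another zinc finger protein, and Usp29 a protease of the family that removes ubiquitin. Counts of a gene do not separate its parental alleles.

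In mm10 the GENCODE vM21 annotation places Zim1 on the minus strand of chromosome 7 from 6671269 to 6696450, Peg3 on the minus strand from 6703892 to 6730431, and Usp29 on the plus strand from 6730578 to 6967219. Zfp264, which the annotation lists as a transcribed pseudogene, follows on the plus strand from 6977246 to 6991087. The promoter windows of the RefSeq table, 250 bases before to 50 bases after each start on GRCm38.p6, held 3 of the 4 genes. They show how close the divergent starts of Peg3 and Usp29 lie, 164 bases apart, so that their windows share 263 bases, while the start of Zim1 lies 33987 bases from that of Peg3. The window of Peg3 is chr7:6730370-6730669 and that of Zim1 chr7:6696383-6696682, both read on the minus strand, 5′ to 3′, with matches to the searched motifs in capitals.
Peg3: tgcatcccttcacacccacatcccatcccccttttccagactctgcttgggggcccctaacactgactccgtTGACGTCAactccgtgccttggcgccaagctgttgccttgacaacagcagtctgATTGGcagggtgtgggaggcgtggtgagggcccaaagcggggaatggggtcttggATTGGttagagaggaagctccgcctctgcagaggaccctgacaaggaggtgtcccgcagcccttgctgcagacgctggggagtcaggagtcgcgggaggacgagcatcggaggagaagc
Zim1: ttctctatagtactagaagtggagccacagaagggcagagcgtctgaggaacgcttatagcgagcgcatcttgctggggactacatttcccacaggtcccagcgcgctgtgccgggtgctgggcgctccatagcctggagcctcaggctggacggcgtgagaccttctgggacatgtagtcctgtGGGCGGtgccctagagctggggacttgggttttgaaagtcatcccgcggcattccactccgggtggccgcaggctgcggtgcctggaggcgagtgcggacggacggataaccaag
Motifs were searched on both strands, and none of the matches overlapped another. The Peg3 window held 1 match of the palindrome TGACGTCA, starting at position -178 from the first transcribed base, and 2 matches of CCAAT, read here as its complement, starting at -124 and -69. The same letters stand at position 8 and at positions -99 and -44 of the Usp29 window. The Zim1 window held neither of these and 1 match of GGGCGG, starting at -65. TGACGTCA occurred in 1.79% of 32817 promoter windows, CCAAT in 37.4% and GGGCGG in 35.6%. GCCATNTT, a core of the YY1 motif, which is known from the first intron of Peg3, occurred in 6.04% of windows and in 0 of the 3 windows of the domain.

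Library totals ran from 16084413 to 26913636 counts. Igf2as, a transcript of the deleted locus, had 100 to 122 counts in the deletion libraries and 1113 to 1868 in the wild-type libraries. Skeletal muscle markers were abundant in all libraries, with none of 10 at 0 and a summed level of 161364 to 181564 CPM (counts relative to the scaled library size) in the deletion group and 176903 to 208500 CPM in wild-type. All 10 of them had a negative log2 fold change, with a median of -0.20. One of them, Mb, myoglobin, was called lower (adjusted p = 0.0348, edgeR), and this call was kept only without deletion library 1A or 2 when libraries were left out singly. DESeq2 called 4 of the 10, and 5 had an unadjusted p under 0.05. Of all 15241 tested genes edgeR called 1.13% and DESeq2 called 962, and 21.3% had an unadjusted p under 0.05. Deletion library 1A had 2.50 CPM of Xist, which coats the inactive X, against 1270 to 1895 CPM in the other 7 libraries, which goes against its label as female. In deletion library 1B, white adipocyte markers had a median log2 difference from the mean of wild-type of 1.42, and the other 7 libraries had -0.42 to 0.44. In bulk muscle, fewer cells of a type and less RNA per cell cannot be told apart.

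Peg3 was the most abundant RNA of the domain. It had 40060, 48155, 32307 and 47544 counts in deletion libraries 1A, 1B, 2 and 3, and 28348, 49190, 48260 and 43616 in wild-type. Scaled to library size these were 2046, 2569, 1928 and 2345 CPM in the deletion group and 1839, 1882, 1805 and 1852 CPM in wild-type. The wild-type libraries lay close together, and all 4 deletion libraries lay above them, library 2 by the least. The means were 2222 ± 291 and 1845 ± 32.2 CPM (SD, n = 4 each), a log2 fold change of 0.27 ± 0.09 (SE). Within each library Peg3 ranked between 27 and 40 among the 23336 rows by count.

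Zim1, the maternally expressed neighbour, had 11258, 13144, 9348 and 13812 counts in deletion libraries 1A, 1B, 2 and 3, and 7041, 11616, 12203 and 10700 in wild-type. These were 575, 701, 558 and 681 CPM in the deletion group and 457, 445, 456 and 454 CPM in wild-type. The wild-type values were again nearly the same in every library, and the groups did not overlap. The means were 629 ± 72.9 and 453 ± 5.77 CPM (SD, n = 4 each), a log2 fold change of 0.47 ± 0.08 (SE). Zim1 ranked between 104 and 183 by count.

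Usp29 was the least abundant of the measured genes. It had 546, 654, 443 and 666 counts in deletion libraries 1A, 1B, 2 and 3, and 293, 611, 628 and 501 in wild-type. These were 27.9, 34.9, 26.4 and 32.9 CPM in the deletion group and 19, 23.4, 23.5 and 21.3 CPM in wild-type. Wild-type library 1A was the lowest, and the groups did not overlap. The means were 30.5 ± 4.01 and 21.8 ± 2.11 CPM (SD, n = 4 each), a log2 fold change of 0.48 ± 0.11 (SE). Usp29 ranked between 4783 and 7182 by count.

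**Figure D1:**
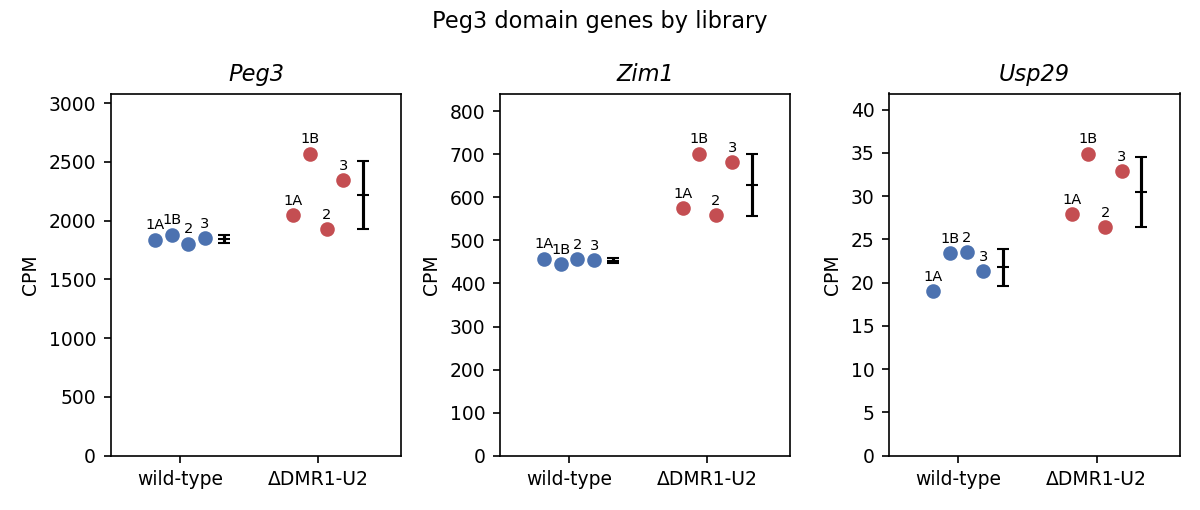
CPM of Peg3, Zim1 and Usp29 in each library, on linear axes from 0. Points are libraries marked with their names, and the bars beside them give the mean ± SD of 4 libraries. The ΔDMR1-U2 points lie above all wild-type points in each panel, and those of wild-type Peg3 and Zim1 nearly coincide.

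All 3 genes were higher in every deletion library than in any wild-type library, a pattern seen in 6.40% of the 15241 genes tested. At an adjusted p under 0.05 over all genes (edgeR quasi-likelihood test), 1 of the 3, Zim1, was called, where 1.13% of all tested genes were called, 0.512% as higher and 0.617% as lower. Since the genes were chosen on this contrast, nothing is read from these counts. In the authors' deposited table, which gives wild-type over ΔDMR1-U2, the fold change was 0.830 for Peg3, 0.720 for Zim1 and 0.714 for Usp29. The direction was kept in all 13 alternative fits, with log2 fold changes of 0.19 to 0.33 for Peg3, 0.42 to 0.53 for Zim1 and 0.41 to 0.54 for Usp29. For fits with libraries left out, the lack of overlap nearly fixed the direction in advance. Zim1 was called in 6 of the 13. Among the fits with libraries left out, it was not called without deletion library 3, any 1 of the wild-type libraries, or deletion libraries 1A and 1B together.

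The deletion libraries stood in the same order for all 3 genes, library 1B highest, then 3, 1A and 2. The share of all tested genes with this order was not examined. Library 1B lay 0.48 above the wild-type mean on the log2 scale for Peg3, 0.63 for Zim1 and 0.68 for Usp29. Library 2 lay 0.06, 0.30 and 0.28 above it. The wild-type libraries lay within -0.03 to 0.03 of their mean for Peg3 and Zim1 and within -0.19 to 0.11 for Usp29. Library 1B, the highest, was also the one with the high adipocyte markers. Without it, the log2 fold changes were 0.19 for Peg3, 0.42 for Zim1 and 0.41 for Usp29, and without library 1A they were 0.31, 0.52 and 0.53. Without both they were 0.21, 0.45 and 0.44. As the groups did not overlap, leaving libraries out could hardly change the sign.

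**Figure D2:**
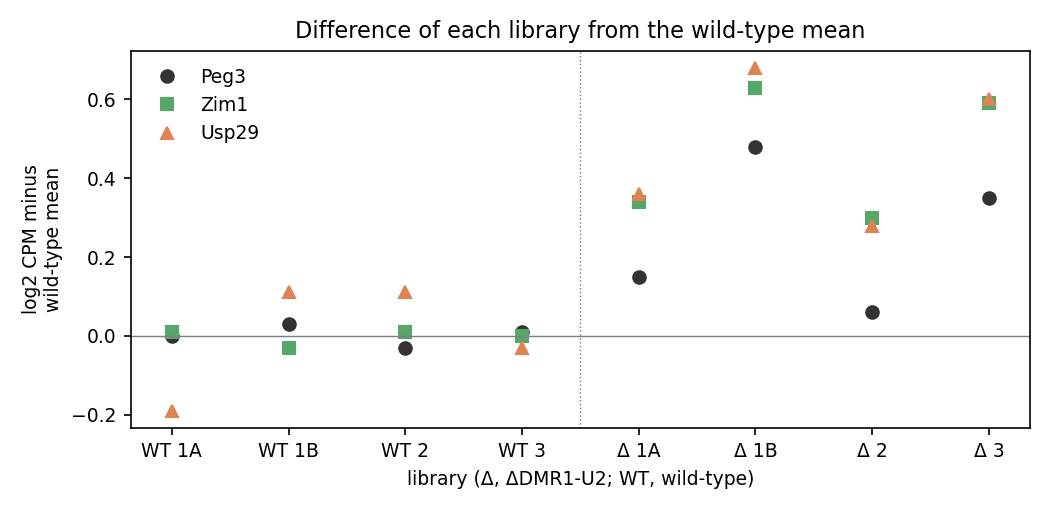
Difference of log2 CPM from the wild-type mean for Peg3, Zim1 and Usp29 in each library. Points are single libraries. In ΔDMR1-U2 the order 1B, 3, 1A, 2 from high to low holds for each gene, and the Peg3 points lie below those of Zim1 and Usp29.

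Peg3 and Zim1 spread more widely among the deletion libraries than among the wild-type libraries. Their coefficient of variation was 1.74% and 1.27% in wild-type and 13.1% and 11.6% in the deletion group, and counting error by itself gives 0.498% and 1.00% in wild-type. Among the 5886 tested genes at or above the mean level of Usp29, 2.29% had a smaller wild-type value than Peg3 and 1.05% a smaller one than Zim1, while the median was 6.39%. In the deletion group the median of these genes was 8.38%, and 78.1% and 71.8% of them lay below Peg3 and Zim1. Usp29 varied by 9.70% in wild-type and 13.1% in the deletion group, of which counting error gives 4.65% and 4.22%. A variance from 4 libraries is itself imprecise, and the difference in spread was not tested.

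**Figure D3:**
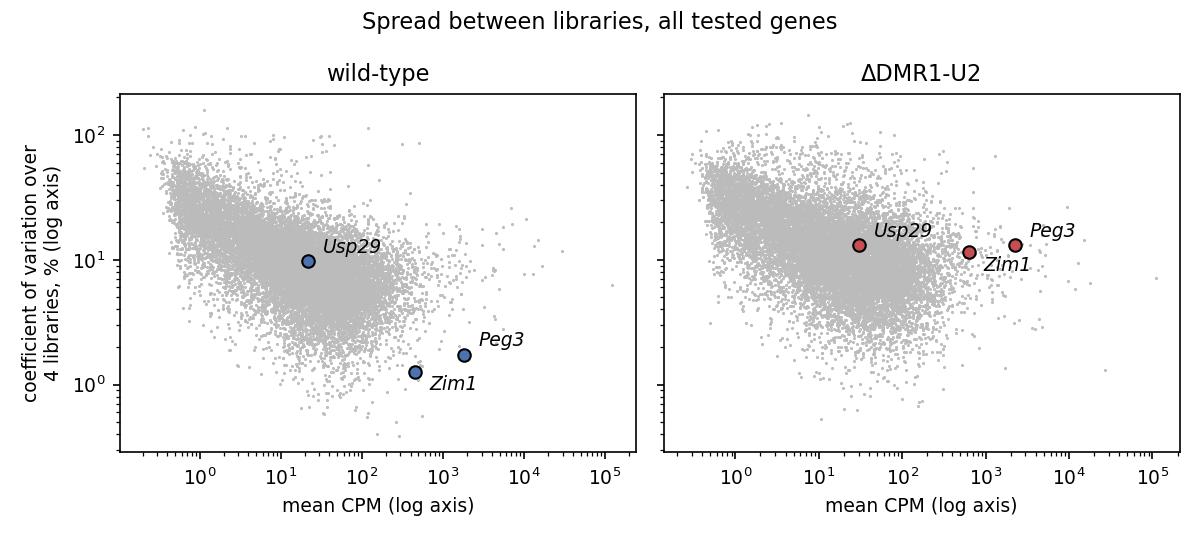
Coefficient of variation over the 4 libraries of a genotype against mean CPM, both on log axes, with 1 grey point per tested gene. Peg3 and Zim1 lie at the lower edge of the cloud in wild-type, at 1.74% and 1.27%, and within it in ΔDMR1-U2, at 13.1% and 11.6%.

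Levels of different genes were compared per kilobase of merged exon, with 13324 exon bases for Peg3, 8086 for Zim1 and 18078 for Usp29. On this scale Peg3 was at 138 ± 2.41 CPM per kilobase in wild-type and 167 ± 21.8 in the deletion group. Zim1 was at 56.0 ± 0.713 and 77.8 ± 9.02, and Usp29 at 1.21 ± 0.117 and 1.69 ± 0.222 (SD, n = 4 each). The order Peg3, Zim1, Usp29 held in every library with no overlap between neighbours in the order. Merged exons include all annotated transcripts, and the exons used in this muscle were not measured. The gene of Usp29 spans 236642 bases.

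Ratios within a library do not depend on its scaling. Zim1 had 28.1, 27.3, 28.9 and 29.1 counts per 100 Peg3 counts in deletion libraries 1A, 1B, 2 and 3, and 24.8, 23.6, 25.3 and 24.5 in wild-type. The groups did not overlap, at 28.3 ± 0.818 and 24.6 ± 0.707 (SD, n = 4 each), a ratio 1.15-fold higher in the deletion group. Zim1 thus stood higher relative to Peg3 in each deletion library than in any wild-type library. Usp29, a paternal gene like Peg3, also stood higher relative to Peg3, by 1.16-fold. The genes were chosen on this contrast, and the share of other gene pairs with such a difference was not examined.

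Usp29, which shares the promoter region of Peg3, had 1.36, 1.36, 1.37 and 1.4 counts per 100 Peg3 counts in the deletion group and 1.03, 1.24, 1.30 and 1.15 in wild-type. These were 1.37 ± 0.0191 and 1.18 ± 0.117 (SD, n = 4 each), 1.16-fold higher in the deletion group and also without overlap. Counting error of Usp29 by itself is 4.22% of its level in the deletion group, so the closeness of these 4 ratios is not read further. Zim1 had 20.6, 20.1, 21.1 and 20.7 counts per count of Usp29 in the deletion group and 24.0, 19, 19.4 and 21.4 in wild-type. Here the groups overlapped, and the means of 20.6 ± 0.415 and 21.0 ± 2.29 (SD, n = 4 each) differed by less than the spread between libraries. Their ratio of 0.985 became 1.04 without wild-type library 1A.

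**Figure D4:**
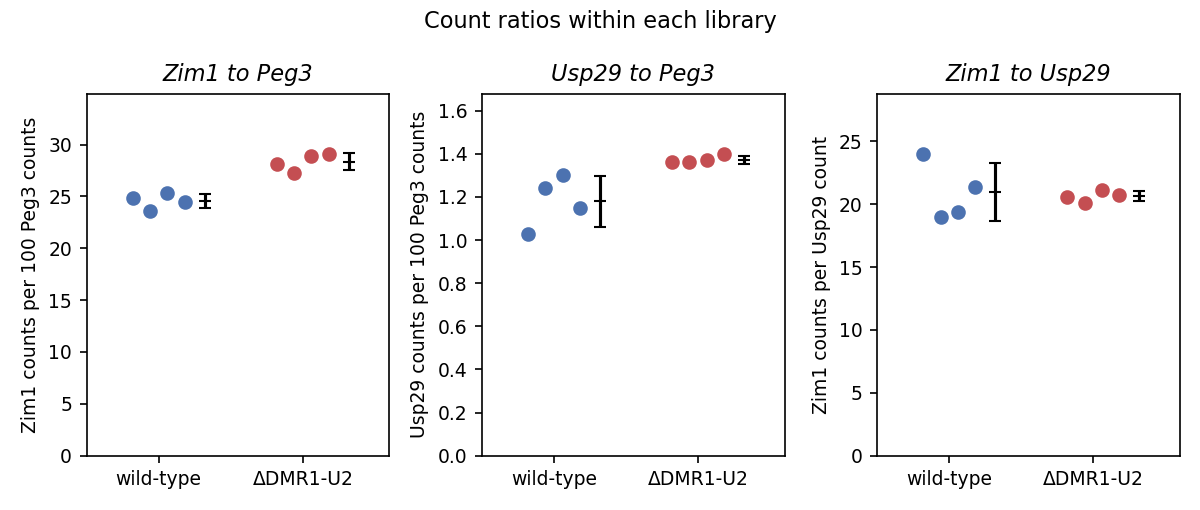
Counts of Zim1 and of Usp29 per 100 Peg3 counts, and counts of Zim1 per count of Usp29, in each library on axes from 0. Points are libraries and bars give the mean ± SD of 4. The first 2 panels show no overlap between genotypes, at 28.3 against 24.6 and 1.37 against 1.18, and the last shows overlapping groups.

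Of 3 other genes with a row of counts that lie within or overlap Peg3 or Usp29, none passed the filter on low counts. Peg3as, an RNA antisense to Peg3 that RefSeq lists as Peg3os from 6706760 to 6707624, had 0 counts in all 8 libraries, which allows up to 0.0179 CPM over all libraries (3 counts, for counting error only). It lies inside Peg3, and without a stated strand setting reads of the pair cannot be told apart. The limit thus holds only for reads assigned to Peg3as and does not bound its RNA. Zim3, antisense to the end of Usp29, had 2 counts in all, and its annotated exons share 2582 bases with those of Usp29. Mir3099, a microRNA gene within Usp29, had 31 counts in all libraries together.

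The region around the domain holds many zinc finger genes and genes of olfactory and vomeronasal receptors. Of 37 other gene rows within 1 Mb of Peg3, Peg3as, Zim3 and Mir3099 included, 14 had 0 counts in all libraries and 11 passed the filter on low counts. Among these 11, none was called by edgeR, where 1.13% of all 15241 tested genes were called. DESeq2 called 0, where it called 962 of all tested genes. An unadjusted p under 0.05 was found for 1, against 21.3% of all tested genes. With so few genes, nothing is read from the 0 calls. The median log2 fold change of the 11 was -0.01, against -0.00 over all tested genes, and 5 of the 11 were positive. In each of the 11 the genotypes overlapped. Of all tested genes, 6.40% had every deletion library above every wild-type library, and the share below was not examined.

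The tested neighbour nearest to Peg3 was Zfp28, a zinc finger gene from 6383295 to 6396915, at 12.2 ± 0.423 CPM in the deletion group and 11.3 ± 0.851 CPM in wild-type, a log2 fold change of 0.11 ± 0.09 (SE). On the other side it was Zfp954, from 7114690 to 7121488, at 5.43 ± 0.298 and 4.73 ± 0.485 CPM, with 0.19 ± 0.12 (SE). Clcn4-2, a chloride and proton exchanger gene, was the most abundant neighbour, at 48.6 ± 2.65 and 50 ± 2.1 CPM. Zfp78, with 293 counts over all libraries, had the lowest log2 fold change, -0.66 ± 0.27 (SE) (adjusted p = 0.196, edgeR). The other zinc finger genes, Zfp787, Zfp444, Zfp667, Zfp583, Zfp418 and Zfp772, had -0.14, 0.08, -0.01, -0.13, 0.09 and -0.26, and the vomeronasal receptor gene Vmn2r29 had 0.02.

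**Figure D5:**
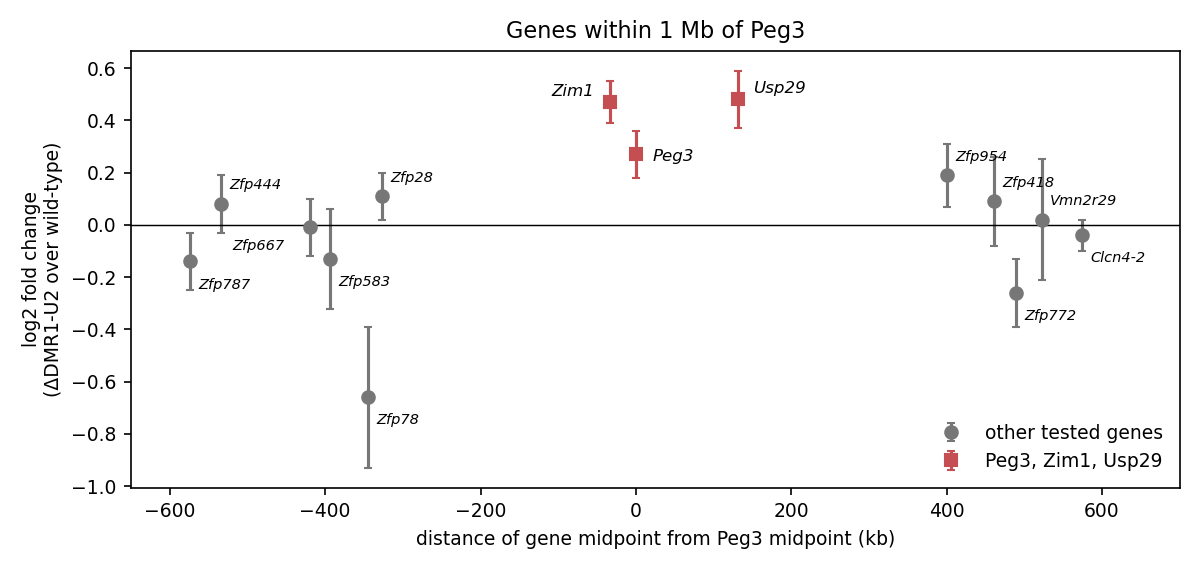
Log2 fold change of ΔDMR1-U2 over wild-type, with its standard error as bars, against the distance of each tested gene from Peg3 in kilobases. Squares are Peg3, Zim1 and Usp29, at 0.27, 0.47 and 0.48, and circles are the 11 other tested genes within 1 Mb, at -0.66 to 0.19.

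Imprinted genes outside the Peg3 domain were taken as a list of 62, of which 54 were tested. The list includes Igf2, at whose locus the deletion lies, and was not cleared of genes near the deletion. Of the 54, 1 rose and 1 fell by edgeR, or 3.70%, where 1.13% of all tested genes were called. In the list 8 genes, or 14.8%, had an unadjusted p under 0.05, against 21.3% of all tested genes. DESeq2 called 3, where it called 962 of all 15241 tested genes. Th, tyrosine hydroxylase of catecholamine synthesis, rose from 0.475 ± 0.200 to 1.79 ± 0.294 CPM, by 1.92 ± 0.28 (SE) on the log2 scale (adjusted p = 0.0231, edgeR). It had 179 counts over all libraries, and its distance from the deletion was not examined. Ddc, the decarboxylase of the same synthesis, fell from 53 ± 5.45 to 38.0 ± 4.01 CPM, with -0.48 ± 0.10 (SE) on the log2 scale (adjusted p = 0.0457, edgeR). Th lost its call if deletion library 3 was left out, or 1A, 1B or 2 of wild-type, and Ddc without any 1 library other than the deletion libraries 1A and 2. Over the list the median of the log2 fold changes was 0.01, with 29 of 54 positive. Mest, Dlk1, Meg3, Grb10 and Plagl1, genes often studied together with Peg3 as a growth network and named here after their values were seen, had log2 fold changes of -0.13, -0.07, 0.09, -0.06 and 0.13, and none was called.

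Factors that act on imprinted methylation were examined because the Peg3 promoter region is a methylated imprint. Of 19 such genes 17 were tested, and edgeR called 0, where it called 1.13% of all tested genes. An unadjusted p under 0.05 was found for 6, or 35.3%, against 21.3% of all tested genes. Their median log2 fold change was -0.05. Atrx and Tet2, a chromatin remodeller and a methylcytosine dioxygenase, were the most abundant, at 319 ± 23.2 and 273 ± 16.8 CPM in the deletion group and 313 ± 18.9 and 262 ± 15.9 CPM in wild-type. Yy1, which encodes the factor that binds the first intron of Peg3, was at 43.6 ± 1.54 and 40.7 ± 2.78 CPM, with a log2 fold change of 0.10 ± 0.07 (SE). DESeq2, which called 962 of all 15241 tested genes, called 3 of these genes, all lower in the deletion group. They were Dnmt1, the maintenance methyltransferase, at -0.35, its partner Uhrf1 at -0.57 and the dioxygenase Tet1 at -0.35. Yy1 and these 3 genes were named after their values were seen.

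Genes of the p53 and TNF pathways, in which the PEG3 protein has reported partners, numbered 20, all tested. None was called by edgeR, which called 1.13% of all tested genes. An unadjusted p under 0.05 was found for 5, or 25.0%, against 21.3% of all tested genes. Over the 20 genes the median log2 fold change was 0.06. Cdkn1a, a p53 target, and Mdm2, the ligase that degrades p53, were the most abundant. They had log2 fold changes of 0.17 and 0.05. DESeq2 called 1, Siah1a, a ubiquitin ligase reported to bind PEG3, at 0.35 (adjusted p = 0.015, DESeq2). Apart from Usp29, 47 genes listed by a Usp symbol were tested, and their protease function was not examined. Of these edgeR called 0, and 3, or 6.38%, had an unadjusted p under 0.05. Over all tested genes these shares were 1.13% and 21.3%. The median of the 47 was -0.00. Usp9x and Usp47, the most abundant, had -0.01 and -0.10. DESeq2 called Usp13 and Usp28, at -0.35 and -0.33. Of all 15241 tested genes it called 962.

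Markers of the cells known to express Peg3 were examined as 2 lists. Of 10 satellite cell and myoblast markers, all tested, edgeR and DESeq2 called 0, with 2 at an unadjusted p under 0.05, and the median log2 fold change was -0.10. Their summed level was 380 to 486 CPM in the deletion group and 426 to 512 CPM in wild-type, with none of the 10 at 0. Itga7 and Cdh15, an integrin and a cadherin of these cells, were the most abundant, at -0.13 and -0.10, and Pax7, the satellite cell factor, had -0.10. Of 9 tested interstitial progenitor and fibroblast markers 1 fell, Col15a1, a basement membrane collagen, from 227 ± 13.7 to 145 ± 23.9 CPM, with -0.65 ± 0.11 (SE) on the log2 scale (adjusted p = 0.0301, edgeR). It kept its call only without deletion library 1A, 1B or 2. Pdgfra, a receptor that marks interstitial progenitors, had 0.41 and was not called by edgeR, while DESeq2 called it (adjusted p = 0.0481, DESeq2). In this list DESeq2 called 2 markers, and 3, or 33.3%, had an unadjusted p under 0.05. Of all 15241 tested genes edgeR called 1.13% and DESeq2 called 962, and 21.3% had an unadjusted p under 0.05. The summed level of these markers was 1319 to 1487 CPM in the deletion group and 1438 to 1513 CPM in wild-type, with none at 0.

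Other cell types were checked in the same way. Nerve and Schwann cell markers were at a summed 304 to 376 CPM in the deletion group and 210 to 292 CPM in wild-type. The most abundant was Pmp22, which other cells also express, at 185 ± 9.41 and 169 ± 11.7 CPM. All 8 nerve and Schwann cell markers were positive, at a median of 0.63. By edgeR 0 were called, with 5, or 62.5%, at an unadjusted p under 0.05, and DESeq2 called 3. The median of the nerve markers lay 0.46 to 0.91 above the wild-type mean in the deletion libraries, highest in library 3. The part of these cells in the values of Peg3, Zim1 and Usp29 was not tested. White adipocyte markers summed to 1600 to 2389 CPM in the deletion group and 1315 to 1469 CPM in wild-type, with a median of 0.72 over 9 tested. By library their median difference was 1.42 in deletion library 1B and -0.09, 0.08 and 0.00 in 1A, 2 and 3. Of the 9, edgeR called 0 and DESeq2 called 1, and 3 had an unadjusted p under 0.05. Endothelial markers summed to 593 to 642 and 599 to 649 CPM, with 0 of 8 called by edgeR, 1 by DESeq2 and 3 at an unadjusted p under 0.05. Macrophage and blood markers summed to 367 to 524 and 453 to 1112 CPM, with 0 of 7 called by either tool and 1 at an unadjusted p under 0.05. In none of these lists was a marker at 0 counts in all libraries. Of all 15241 tested genes edgeR called 1.13% and DESeq2 called 962, and 21.3% had an unadjusted p under 0.05.

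The genes whose log2 CPM over the 8 libraries was most like that of each gene of the domain were ranked among 15240 genes by Pearson's r, as a description. The points share library depth and genotype in this measure. For Peg3 they included Gpr160, an orphan receptor, and Arhgef12, a guanine nucleotide exchange factor, both at an r of 0.984. For Zim1 they were Sult5a1, a sulfotransferase, Mlycd, malonyl-CoA decarboxylase, and Sln, sarcolipin of the calcium pump, at 0.996, 0.991 and 0.989. For Usp29 they included Stxbp6 and Dapp1, at 0.988 and 0.984. None of the genes named here lies on chromosome 7.

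Among the genes of the domain, Zim1 and Usp29 had an r of 0.940, and Peg3 had 0.939 with Zim1 and 0.910 with Usp29. By this measure Zim1 stood at rank 112 for Peg3, and Usp29 at rank 279. With the group means removed, so that only differences among libraries of a genotype remain, r was 0.952 between Peg3 and Zim1, 0.788 between Peg3 and Usp29 and 0.754 between Zim1 and Usp29. Of 15240 genes, Zim1 then stood at rank 47 for Peg3 and Usp29 at rank 825. For Zim1, Usp29 stood at rank 1114, so many genes outside the domain were more alike. As wild-type Peg3 and Zim1 hardly varied, these values rest mainly on the deletion libraries.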

How the data were processed

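Total RNA, depleted of ribosomal RNA, was sequenced from 8 muscle samples. Per the submitters' processing notes, reads were processed on mm10 with HTSeq 0.5.4p3, TopHat2 2.0.9, Bowtie2 2.1.0, DESeq2 1.4.5 and FastQC 0.10.1. How strand was counted, and on which annotation, was not given in sources used here. Per the file headers, the authors deposited raw read counts per gene, mean normalised counts (a signal on the size-factor scale), their fold change as a ratio of wild-type over ΔDMR1-U2, its log2, and p-values.

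The genes and lists were chosen with earlier results of these data known. The test of the counts was that of edgeR 4.0.16, run in R 4.3.3 (filterByExpr at a minimum count of 10, trimmed mean of M values, quasi-likelihood test, Benjamini-Hochberg adjustment over 15241 genes, threshold 0.05), a procedure checked on simulated counts. CPM used the scaled library sizes, and log2 CPM a prior count of 2. The common biological coefficient of variation was 12.3%. DESeq2 1.42.0, its size factors, no filter, a replicate block and left-out libraries were alternatives. Of 23336 symbols 20939 matched GENCODE vM21 directly, 1902 by an older symbol and 239 by RefSeq, and 256 did not match. Promoter sequences are from RefSeq on GRCm38.p6, the assembly of mm10. Genes named in the text are those of the domain, all tested neighbours, and of each list the called members or else the 2 most abundant, with the 3 genes most like each gene of the domain. Some genes that this rule names are not reported here. Others were named after their values were seen. Each sample is 1 mouse per the series' design text.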

Additional observations from a re-analysis of the deposited data

Results flagged for a closer look

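In ΔDMR1-U2, the level of Clcn4-2 in library 2 was 52.6 CPM, far from the 47.0 to 47.8 CPM of the other 3 libraries of the group. Its distance to the nearest of them was 0.856 of the group's range, above Dixon's 95% critical value for 4 samples. It was 1 of 34 groups of 4 libraries examined in this way, over Peg3, Zim1, Usp29, their ratios and the tested neighbours, and chance gives about 1 in 20.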

How the results depend on the processing

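Peg3, Zim1 and Usp29 kept a positive log2 fold change in each of 13 alternatives, and their ratios moved by less than the spread between libraries. Leaving libraries out could hardly change the sign, since the groups did not overlap. The count of called genes was 172. It was 962 with the DESeq2 test, 13 with the replicate block, 16 without ΔDMR1-U2 libraries 1A and 1B, and 7 to 631 when 1 library was left out: leaving out ΔDMR1-U2 1A, 1B, 2 or 3 gave 137, 116, 631 or 7, and leaving out wild-type 1A, 1B, 2 or 3 gave 7, 20, 10 or 22. Of the domain, 1 gene was called, 2 with DESeq2, 0 with the replicate block, 0 without ΔDMR1-U2 1A and 1B, and 0 to 2 when 1 library was left out, the 2 being Zim1 and Usp29 without ΔDMR1-U2 library 2. Of the imprinted list 2 were called, 3 with DESeq2, 3 with no filter, 0 with the replicate block, 0 without 1A and 1B, and 0 to 3 when 1 library was left out. Of the methylation factors 0 were called, 3 with DESeq2, 1 with no filter and 0 to 1 when 1 library was left out. DESeq2 called 1 gene of the p53 and TNF list and 2 of the Usp list, against 0 in edgeR, and the neighbours gave 0 in all alternatives. The cause of these differences was not tested. With the replicate block the log2 fold changes were 0.26, 0.47 and 0.48 for Peg3, Zim1 and Usp29. Deviations of libraries of the same name had an r of -0.216, -0.182, -0.084 and -0.080 for 1A, 1B, 2 and 3. Libraries of different names had -0.248 to 0.361. With deviations taken from the mean of only 4 libraries, these values cannot decide whether libraries of a name share more than the name. Counting error of 4.65% limits the wild-type values of Usp29.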

Other observations

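The nerve and Schwann cell markers, examined as another cell type of the dissection, all had a positive log2 fold change. Cdh19, a cadherin of Schwann cell precursors, had a log2 fold change of 0.83 ± 0.21 (SE), and Mbp, a myelin protein, had 0.72 ± 0.22. Sox10, the factor of the glial lineage, had 0.55 ± 0.20. Pmp22 and S100b, which other cells also express, had 0.13 and 0.05. By edgeR 0 of the 8 passed the adjusted threshold, with 5 at an unadjusted p under 0.05, and DESeq2 called 3, Cdh19 and Mbp among them. Of all 15241 tested genes edgeR called 1.13% and DESeq2 called 962, and 21.3% had an unadjusted p under 0.05. By library the median of the list lay 0.46 to 0.91 above the wild-type mean in ΔDMR1-U2 and between -0.58 and 0.28 from it in wild-type.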
